A study of Mus musculus with 12 samples.

Results

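The 10 genes described here mark Kupffer cells, the resident macrophages of the liver, and macrophages in general. They were taken by symbol, and all 10 were found among the 37141 gene rows of the count table. Clec4f, Timd4, Vsig4, Cd5l and Marco were grouped as Kupffer cell markers, and Adgre1, Lyz2, C1qa, C1qb and C1qc as macrophage markers. The libraries were made from sorted hepatocytes, so these transcripts are markers of another cell type than the labelled one. They held between 0.0158% and 0.509% of the counts of a library, while Alb, the hepatocyte albumin gene, lay between 40630 and 78250 CPM (counts scaled to the same total in each library).

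Kupffer cells sit in the liver sinusoids, where they take up particles, dying cells and opsonised microbes from the blood. After toxic injury, resident cells can be lost and circulating monocytes enter the tissue, clear debris and can acquire the resident programme over time. Clec4f in rodents and Timd4 are used to tell resident cells from recent arrivals, whereas Adgre1, Lyz2 and the C1q chains are shared more widely among macrophages.

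RNA was read in 12 libraries of 500000 sorted cells each, in 4 groups of 3. All mice carried floxed alleles of Yap and Taz (Wwtr1), the effectors of the Hippo pathway. Yap/Taz KO + CCl4 mice received 5e11 genome copies of an AAV8 vector that drives Cre recombinase from the hepatocyte TBG promoter, then 1 ml/kg carbon tetrachloride (CCl4) in corn oil 3 weeks later, and were killed 48 h after that injection. The ctrl + CCl4 mice received CCl4 without the vector, Yap/Taz KO mice received the vector and were killed 3 weeks later, and ctrl mice have no treatment in the labels. The labels name no control vector and no injection of vehicle, so vector and knockout, and injection and injury, cannot be told apart. The promoter directs Cre to hepatocytes. CCl4 is a toxin that cytochrome P450 enzymes activate in the hepatocytes around the central vein. The study's labels pose the question of whether YAP and TAZ matter for hepatocyte regeneration, and not one about macrophages.

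Total counts ranged from 1617761 to 3028951 per library. Yap1 lay between 7.47 and 17.9 CPM in the 6 libraries with the vector and between 38.3 and 85.7 CPM in the 6 without it. Wwtr1 lay between 7.84 and 27.2 CPM in the libraries with the vector and between 22.7 and 54.7 CPM in those without it, and these ranges overlap. The library ctrl replicate 1 stood apart from the other ctrl libraries in markers of several non-hepatocyte cell types. Its summed endothelial markers reached 3024 CPM, against 844 and 1149 CPM in ctrl replicates 2 and 3, and its level of the globin gene Hbb-bs reached 550.3 CPM, against 8.98 and 40.8 CPM. The ctrl comparisons of the markers are therefore also given without that library. The sources used here do not say whether libraries came from separate animals, so the spread behind each p-value may be technical.

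Upstream sequences of 5 of the genes are shown because their transcripts went different ways relative to each other after injury, as the values below describe. They are RefSeq promoters on GRCm38.p6 (8 of the 10 genes matched), printed 5′ to 3′ on the gene's own strand up to the first annotated exon. Capitals mark a match on either strand to the core motif GAGGAA of PU.1, the lineage factor of macrophages, or to the half-site TGCTGA of MAF factors.
Clec4f, chr6:83656188-83656366, minus strand: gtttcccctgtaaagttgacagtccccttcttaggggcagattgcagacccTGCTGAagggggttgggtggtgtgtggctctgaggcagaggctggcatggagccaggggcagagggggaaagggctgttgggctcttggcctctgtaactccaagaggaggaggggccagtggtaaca
Timd4, chr11:46810549-46810798, plus strand: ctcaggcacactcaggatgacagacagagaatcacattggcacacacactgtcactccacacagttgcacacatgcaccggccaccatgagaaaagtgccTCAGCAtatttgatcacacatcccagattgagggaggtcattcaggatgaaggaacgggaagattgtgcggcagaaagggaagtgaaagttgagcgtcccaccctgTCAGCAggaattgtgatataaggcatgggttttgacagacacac
Marco, chr1:120505025-120505274, minus strand: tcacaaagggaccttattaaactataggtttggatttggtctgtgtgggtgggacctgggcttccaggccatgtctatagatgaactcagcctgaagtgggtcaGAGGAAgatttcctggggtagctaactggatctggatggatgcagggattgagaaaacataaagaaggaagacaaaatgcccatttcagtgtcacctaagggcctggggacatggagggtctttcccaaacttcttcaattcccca
Lyz2, chr10:117282322-117282522, minus strand: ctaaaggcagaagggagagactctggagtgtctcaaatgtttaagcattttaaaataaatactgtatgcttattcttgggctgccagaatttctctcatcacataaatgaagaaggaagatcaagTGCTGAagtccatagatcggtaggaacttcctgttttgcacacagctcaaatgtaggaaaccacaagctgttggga
C1qb, chr4:136886201-136886450, minus strand: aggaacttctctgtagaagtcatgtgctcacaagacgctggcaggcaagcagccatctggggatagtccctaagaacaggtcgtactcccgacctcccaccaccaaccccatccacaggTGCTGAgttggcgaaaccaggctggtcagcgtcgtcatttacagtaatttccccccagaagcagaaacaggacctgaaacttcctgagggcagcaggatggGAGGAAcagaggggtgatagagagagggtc
In windows of 250 bases before to 50 after the start, GAGGAA was found in 5 of the 8 genes (Vsig4, Cd5l, Marco, C1qb and C1qc) and in 28.3% of 32851 promoters. TGCTGA was found in 6 of the 8 (Clec4f, Timd4, Vsig4, Cd5l, Lyz2 and C1qb) and in 19.5% of promoters. The C/EBP pattern TTNCNNAA was found in 5 of the 8 and in 40.7% of promoters, and the AP-1 pattern TGANTCA in 0 of the 8 and in 7.81% of promoters. Each motif was searched on both strands and counted apart from the others, so matches of different motifs may overlap. These are letter matches, not measured binding.

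Summed over the 10 genes, the markers reached 2891, 2092 and 1941 CPM in the Yap/Taz KO + CCl4 libraries and 3584, 2359 and 5094 CPM in the ctrl + CCl4 libraries. They reached 837, 158 and 474 CPM in the Yap/Taz KO libraries and 2272, 451 and 502 CPM in the ctrl libraries. Every injured library lay above every uninjured one except ctrl replicate 1, which fell within the range of the injured libraries. Group means were 2308 ± 510 CPM for Yap/Taz KO + CCl4 and 490 ± 340 CPM for Yap/Taz KO, and 3679 ± 1370 CPM for ctrl + CCl4 and 1075 ± 1037 CPM for ctrl (SD, n = 3 each). Without ctrl replicate 1 the ctrl mean was 476 CPM. Summed markers of stellate cells were also higher after injury in the knockout, while in ctrl the ranges overlapped. Over 14 genes they totalled 1998 to 2156 CPM in Yap/Taz KO + CCl4, against 308 to 945.5 CPM in Yap/Taz KO. They totalled 1346 to 2935 CPM in ctrl + CCl4, against 396 to 1614 CPM in ctrl. Not every gene went up: 12 of the 14 fold changes were positive in the knockout and 11 in ctrl. Of these 14 genes, 6 rose in the knockout response, where 9.42% of tested genes did, and 4 in the ctrl response, where 10.5% did. Without ctrl replicate 1, 7 rose in ctrl, where 15.4% did. With 12 libraries 0 of the 14 fell. Of 15 tested endothelial genes, 0 rose and 0 fell in either response. Under alternative settings up to 3 of them rose in ctrl and up to 2 in the knockout. Of 12 hepatocyte genes, 1 rose and 3 fell in the knockout response, where 9.42% and 8.35% of tested genes did. In the ctrl response 1 rose and 7 fell, where 10.5% and 12% of tested genes did. The part of these cell types in the marker levels was not tested. In bulk samples such as these, fewer cells of a type and less RNA per cell cannot be told apart.

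**Figure D1:**
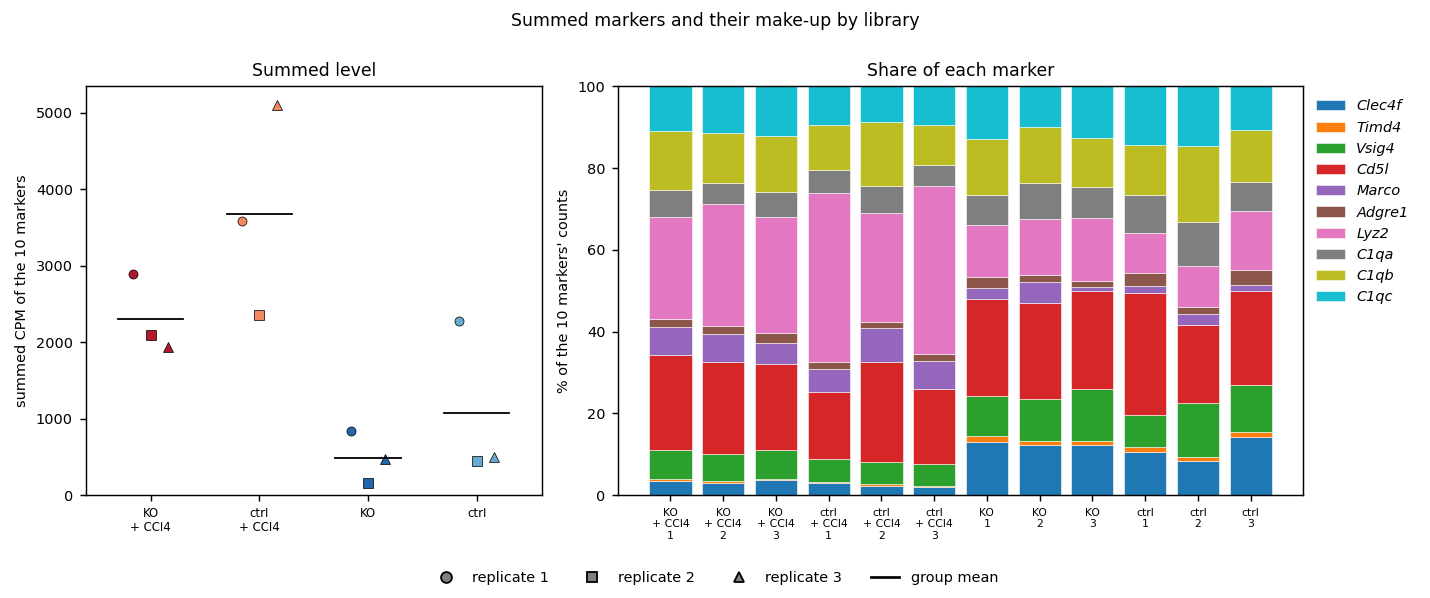
Left, summed CPM of the 10 markers in each library, with symbols for replicates and lines for group means. Right, the percentage of the summed counts that each marker contributed in each library. Clec4f, Timd4, Vsig4 and C1qa took larger shares in every uninjured library than in any injured one. Lyz2 took larger shares in every injured library than in any uninjured one, and the shares of Marco overlapped.

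The make-up of the sum differed with injury. The 5 Kupffer cell markers supplied 41.0%, 39.4% and 37.1% of the marker counts in Yap/Taz KO + CCl4 libraries, and 50.6%, 52.1% and 50.8% in Yap/Taz KO libraries. They supplied 30.8%, 40.9% and 32.9% in ctrl + CCl4 libraries, and 51.2%, 44.3% and 51.5% in ctrl libraries. The injured and uninjured libraries did not overlap in this share. The separation over all 12 libraries rests on Lyz2 in the denominator. Without it the share was 51.8% to 56.2% in the 6 injured libraries and 49.3% to 60.4% in the 6 uninjured ones. These overlap through ctrl replicate 2 (49.3%). Within the knockout the share stayed apart without Lyz2. It was then 54.5%, 56.2% and 51.8% in Yap/Taz KO + CCl4 libraries, and 57.95%, 60.4% and 60.1% in Yap/Taz KO libraries. The summed level of the 5 Kupffer cell markers itself was 911 ± 244 CPM in Yap/Taz KO + CCl4, against 249 ± 171 CPM in Yap/Taz KO, and 1247 ± 377 CPM in ctrl + CCl4, against 541 ± 541 CPM in ctrl (SD, n = 3 each).

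Lyz2, the lysozyme of monocytes, macrophages and neutrophils (chr10:117277331-117282321, GRCm38), had the highest CPM of the 10 genes in each of the 6 injured libraries, a place held by Cd5l in each of the 6 uninjured ones. It had 716, 624 and 549.5 CPM in Yap/Taz KO + CCl4 libraries, against 106, 21.7 and 73.1 CPM in Yap/Taz KO libraries. It had 1480, 629 and 2094 CPM in ctrl + CCl4 libraries, against 222, 45.4 and 71.7 CPM in ctrl libraries. The injured and uninjured libraries did not overlap in either genotype. The log2 fold change was 2.88 (SE 0.58, edgeR quasi-likelihood adjusted p = 0.00335) with the knockout and 3.23 (SE 0.59, edgeR adjusted p = 0.00124) without it, and 4.14 in ctrl without ctrl replicate 1 (edgeR adjusted p = 9.23e-05). Fold changes from edgeR are relative to the bulk of genes (TMM scaling). Scaling by library totals put the median fold change of all genes at 0.40 rather than 0.03 (log2) in both injury responses, and gave 1814 genes higher and 406 lower in the knockout, against 1016 and 900 with TMM, and 1974 higher and 698 lower in ctrl, against 1137 and 1290 with TMM.
The transcript of Lyz2 is 96.0% identical to that of its neighbour Lyz1, so the counting could have split reads between them and the Lyz2 values are uncertain to that extent. Lyz1 held 4, 5 and 13 counts in Yap/Taz KO + CCl4 libraries and 20, 8 and 20 in ctrl + CCl4 libraries, against 0 in each of the 6 uninjured libraries.

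Marco, a scavenger receptor of macrophages that binds bacteria and particles (chr1:120474538-120505024), had 193, 141 and 99.8 CPM in Yap/Taz KO + CCl4 libraries, against 22.7, 8.22 and 4.74 CPM in Yap/Taz KO libraries. It had 203, 192 and 347 CPM in ctrl + CCl4 libraries, against 39.9, 11.8 and 7.42 CPM in ctrl libraries. All injured libraries lay above all uninjured ones. It rose with injury by 3.22 (log2, SE 0.58, edgeR adjusted p = 0.00150) in the knockout and by 3.24 (SE 0.57, edgeR adjusted p = 0.000936) in ctrl, where it rose by 4.25 without ctrl replicate 1 (edgeR adjusted p = 6.14e-05). Lyz2 and Marco kept their calls in each injury response under all 19 alternative settings, with Marco between 2.80 and 4.25 and Lyz2 between 2.47 and 4.14.

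The 3 C1q chains, which assemble into the recognition molecule of the classical complement pathway and are made by macrophages in most tissues, are encoded side by side within 18.7 kb (chr4:136880129-136898803, minus strand, in the order C1qb, C1qc, C1qa by position). C1qb had 419, 260 and 264 CPM in Yap/Taz KO + CCl4 libraries, against 115, 21.7 and 57.7 CPM in Yap/Taz KO libraries. It had 396, 369 and 502 CPM in ctrl + CCl4 libraries, against 279, 84.6 and 63.7 CPM in ctrl libraries. The groups did not overlap in either genotype. C1qb passed the test in the knockout (log2 fold change 1.91, SE 0.54, edgeR adjusted p = 0.0234) but not in ctrl (1.21, SE 0.52, edgeR adjusted p = 0.117), where it was 2.11 without ctrl replicate 1 (edgeR adjusted p = 0.00412). Leaving out a single library ended the knockout call in 3 cases, with an edgeR adjusted p of 0.0953 without Yap/Taz KO + CCl4 replicate 1, of 0.0851 without replicate 2 of the Yap/Taz KO group and of 0.0854 without its replicate 3.
C1qa had 195, 104 and 121 CPM in Yap/Taz KO + CCl4 libraries, against 61.6, 14.2 and 35.6 CPM in Yap/Taz KO libraries, and it had 203, 153 and 253 CPM in ctrl + CCl4 libraries, against 208, 48.2 and 35.9 CPM in ctrl libraries. C1qc had 312, 237 and 235 CPM in Yap/Taz KO + CCl4 libraries, against 107, 15.7 and 59.3 CPM in Yap/Taz KO libraries, and it had 337, 205 and 483 CPM in ctrl + CCl4 libraries, against 326, 65.2 and 53.8 CPM in ctrl libraries. Both chains separated the knockout groups, and in ctrl they overlapped through ctrl replicate 1. The log2 fold changes in the knockout were 1.56 for C1qa (SE 0.57, edgeR adjusted p = 0.0723) and 1.75 for C1qc (SE 0.63, edgeR adjusted p = 0.0711). In ctrl they were 0.69 (SE 0.55, edgeR adjusted p = 0.406) and 0.82 (SE 0.61, edgeR adjusted p = 0.378), and without ctrl replicate 1 they were 1.86 (edgeR adjusted p = 0.00596) and 2.10 (edgeR adjusted p = 0.00789).
Of all C1q counts in a library, C1qb supplied between 34.3% and 50.8%, C1qc between 28.2% and 40.2% and C1qa between 17.4% and 27.5%. The share of C1qa was 21.0%, 17.4% and 19.5% in Yap/Taz KO + CCl4 libraries, against 21.7%, 27.5% and 23.3% in Yap/Taz KO libraries. It was 21.7%, 21.1% and 20.5% in ctrl + CCl4 libraries, against 25.5%, 24.3% and 23.4% in ctrl libraries. The share of C1qa was lower after injury without overlap within each genotype, and that of C1qb was higher without overlap in the knockout (43.7% ± 1.44 in Yap/Taz KO + CCl4 and 40.2% ± 2.14 in Yap/Taz KO, SD, n = 3 each) but not in ctrl. Among all tested genes, 65.4% in the knockout and 23.5% in ctrl were lower without overlap per C1q count, so the C1qa values are read as a description.

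Cd5l, a secreted scavenger protein of tissue macrophages that binds lipids (chr3:87357881-87371073), had 670.2, 475 and 407 CPM in Yap/Taz KO + CCl4 libraries, against 198, 37.0 and 113 CPM in Yap/Taz KO libraries. It had 588, 580.1 and 939 CPM in ctrl + CCl4 libraries, against 676, 86.5 and 116 CPM in ctrl libraries. Only the knockout groups were apart. Its log2 fold change was 1.80 (SE 0.65, edgeR adjusted p = 0.0694) in the knockout and 0.90 (SE 0.63, edgeR adjusted p = 0.344) in ctrl, where it was 2.37 without ctrl replicate 1 (edgeR adjusted p = 0.00238).
Vsig4, the complement receptor with which Kupffer cells catch C3-coated particles (chrX:96247203-96293438), had 210.3, 137 and 136 CPM in Yap/Taz KO + CCl4 libraries, against 81.7, 16.4 and 60.5 CPM in Yap/Taz KO libraries. It had 199.7, 128 and 275 CPM in ctrl + CCl4 libraries, against 182, 59.5 and 56.9 CPM in ctrl libraries. The picture was as for Cd5l, with fold changes of 1.26 (SE 0.49, edgeR adjusted p = 0.0953) in the knockout and 0.63 (SE 0.48, edgeR adjusted p = 0.396) in ctrl. The ctrl value was 1.36 without ctrl replicate 1 (edgeR adjusted p = 0.0366).
Adgre1, which encodes the macrophage antigen F4/80 (chr17:57358691-57483527), had 62.9, 42.4 and 50.9 CPM in Yap/Taz KO + CCl4 libraries, against 23.6, 2.61 and 7.51 CPM in Yap/Taz KO libraries. It had 63.4, 38.3 and 87.8 CPM in ctrl + CCl4 libraries, against 73.1, 7.56 and 18.5 CPM in ctrl libraries. It too overlapped in ctrl only, with fold changes of 1.85 (SE 0.70, edgeR adjusted p = 0.0822) in the knockout and 0.53 (SE 0.65, edgeR adjusted p = 0.613) in ctrl. Without ctrl replicate 1 the ctrl value was 1.87 (edgeR adjusted p = 0.0338), close to that of the knockout.

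The remaining 2 Kupffer cell markers overlapped between injured and uninjured libraries in both genotypes. Clec4f, a lectin that binds galactose-bearing glycans (chr6:83644542-83656187), had 101, 61.9 and 70.5 CPM in Yap/Taz KO + CCl4 libraries, against 109.7, 19.4 and 58.5 CPM in Yap/Taz KO libraries. It had 106, 55.1 and 101 CPM in ctrl + CCl4 libraries, against 242, 37.3 and 71.7 CPM in ctrl libraries. The highest value of all 12 libraries was in uninjured ctrl replicate 1. Its log2 fold change was -0.05 (SE 0.58, edgeR adjusted p = 0.972) in the knockout and -0.79 (SE 0.58, edgeR adjusted p = 0.368) in ctrl, where it was 0.26 (log2) without ctrl replicate 1 (edgeR adjusted p = 0.738).
Timd4, a receptor for phosphatidylserine on dying cells (chr11:46810800-46844332), had 11.4, 10.3 and 7.57 CPM in Yap/Taz KO + CCl4 libraries, against 11.8, 1.49 and 4.74 CPM in Yap/Taz KO libraries. It had 6.95, 8.25 and 12.2 CPM in ctrl + CCl4 libraries, against 24.6, 4.72 and 6.18 CPM in ctrl libraries. Its log2 fold change was 0.35 (SE 0.66, edgeR adjusted p = 0.774) in the knockout and -0.77 (SE 0.64, edgeR adjusted p = 0.438) in ctrl. These values rest on 4 to 63 counts per library, which limits their precision. In Yap/Taz KO replicate 2 the 4 counts correspond to 1.49 CPM with a 95% exact Poisson interval of 0.407 to 3.82, which covers counting error only.

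**Figure D2:**
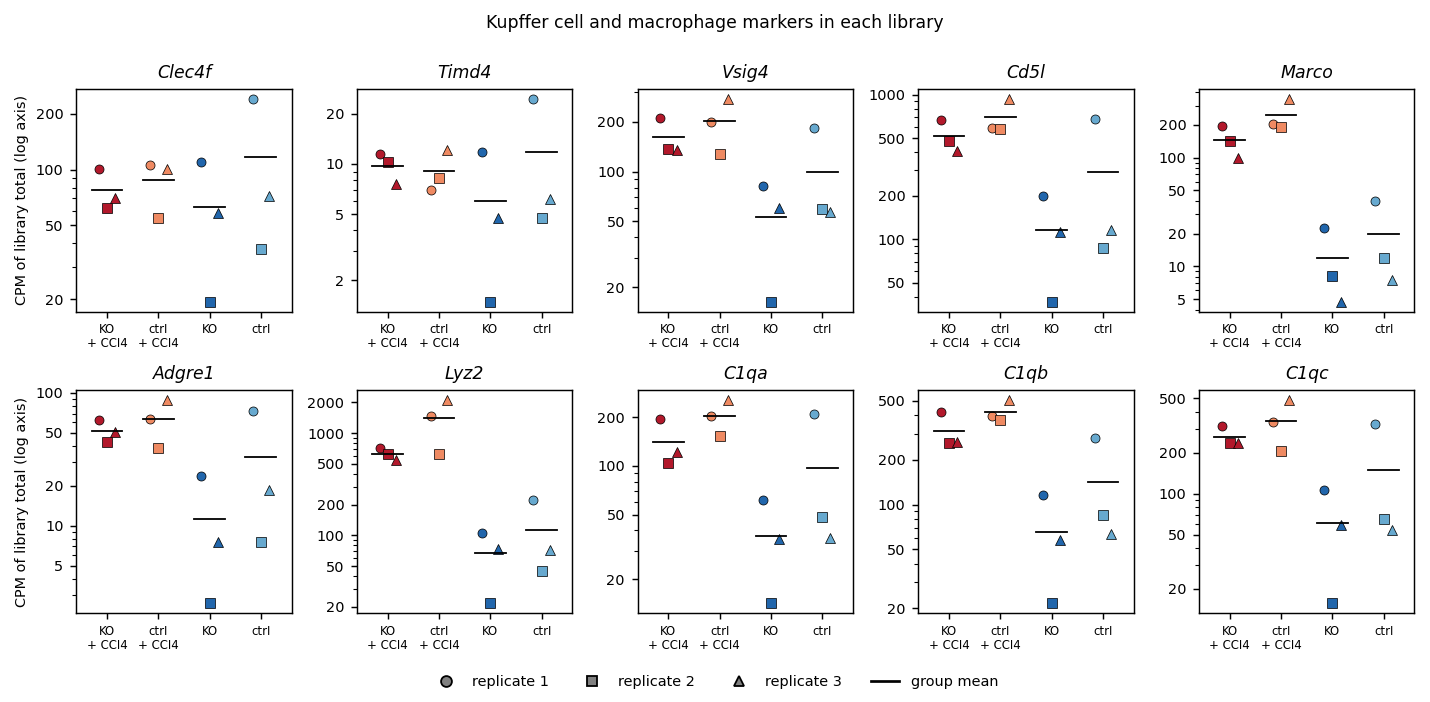
CPM of each of the 10 markers in the 12 libraries on log axes, with symbols for replicates and lines for group means. Marco and Lyz2 separate injured from uninjured libraries in both genotypes, while Clec4f and Timd4 overlap, and replicate 1 is the highest ctrl library for every marker.

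In all, 3 of the 10 markers passed the test as higher in Yap/Taz KO + CCl4 than in Yap/Taz KO (Marco, Lyz2 and C1qb), where 9.42% of the 10780 tested genes did, and 0 passed as lower, where 8.35% did. In the other genotype, 2 of the 10 passed as higher in ctrl + CCl4 than in ctrl (Marco and Lyz2), where 10.5% of tested genes did, and 0 as lower, where 12% did. The median log2 fold change over the 10 was 1.77 in the knockout and 0.76 in ctrl, against 0.03 over all tested genes in each.
Without ctrl replicate 1, 8 of the 10 passed as higher in ctrl + CCl4, all but Clec4f and Timd4, where 15.4% of genes did. That fit, which shares its estimate of spread over the groups, also called 8 of the 10 in the knockout response, where 11.6% of genes passed as higher. The knockout count was 8 without Yap/Taz KO replicate 1 and 5 without ctrl replicate 2. By CPM alone, 8 of the 10 did not overlap between Yap/Taz KO + CCl4 and Yap/Taz KO, all higher, beside 35.5% of tested genes that were higher and 8.32% that were lower. Of the 10, 3 were higher without overlap in ctrl + CCl4 than in ctrl, beside 31.5% of tested genes (9.84% lower), and 9 were without ctrl replicate 1, beside 42.3% (14.2% lower).

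**Figure D3:**
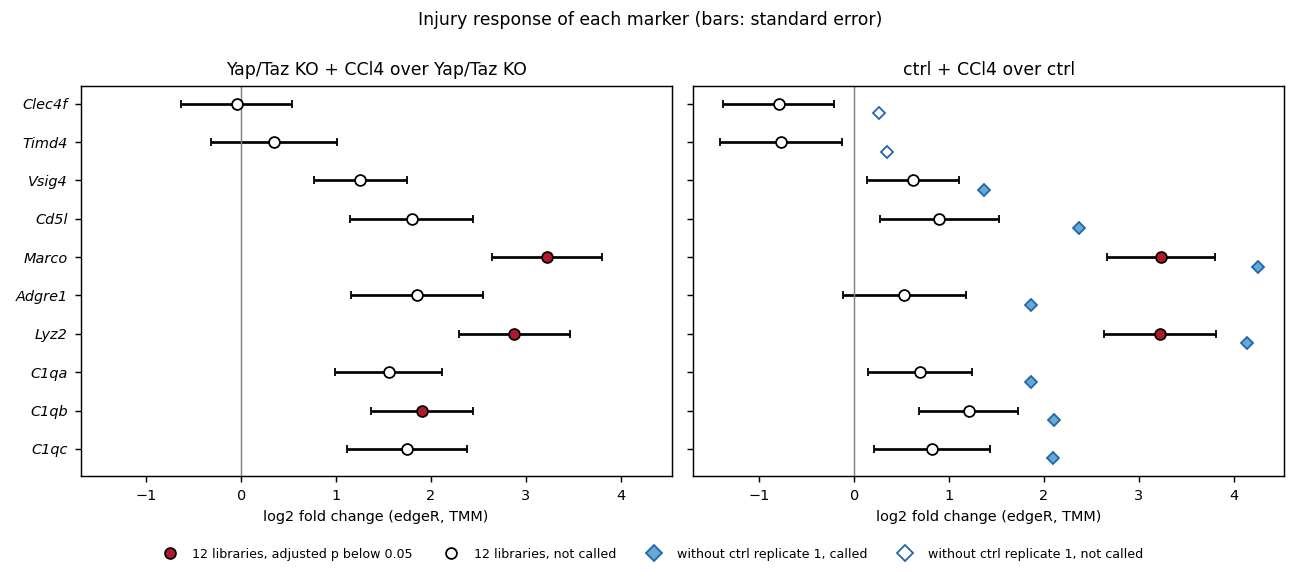
Log2 fold change of each marker with injury, with standard errors, in the knockout (left) and in ctrl (right); filled circles passed the test. Diamonds in the ctrl panel give the value without ctrl replicate 1, which lies to the right of the 12-library value for every marker, with 8 of 10 filled.

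To compare the markers with each other within a library, the 7 genes other than C1q were also expressed as counts per 100 summed counts of C1qa, C1qb and C1qc. This ratio does not depend on library scaling and has no test here. Clec4f stood at 10.9, 10.3 and 11.4 per 100 C1q counts in Yap/Taz KO + CCl4 libraries, against 38.6, 37.7 and 38.3 in Yap/Taz KO libraries. It stood at 11.4, 7.58 and 8.18 in ctrl + CCl4 libraries, against 29.7, 18.9 and 46.8 in ctrl libraries. The 6 injured libraries all lay below the 6 uninjured ones, and the knockout libraries within each group were nearly equal to each other. The ratio of group means, injured over uninjured, was 0.284 in each genotype.
Timd4 stood at 0.742 to 1.71 (median 1.18) per 100 C1q counts in the 6 injured libraries and at 2.39 to 4.15 (median 3.07) in the 6 uninjured ones, again without overlap. Marco stood at 16.1 to 28.1 (median 22.6) in injured libraries and at 3.11 to 15.9 (median 5.44) in uninjured ones, and so was higher after injury by a margin that Yap/Taz KO replicate 2, the highest uninjured library, made narrow. Lyz2 stood at 77.3 to 169 (median 96.3) in injured and at 22.9 to 47.9 (median 39.6) in uninjured libraries, also without overlap.
Of the 7 genes, 2 were therefore higher and 2 lower in all injured libraries, where 2.17% and 8.66% of tested genes were. Without ctrl replicate 1, 2.23% of tested genes were higher and 55% lower in all injured libraries by this ratio. Within the knockout 3.14% were higher and 65.4% lower, and within ctrl 5.56% and 23.5%. A lower count relative to C1q was thus common among all genes, and a higher one was not. Vsig4 overlapped only through ctrl replicate 1, with 17.6 to 22.8 (median 22.0) in injured and 22.4 to 39.6 (median 31.0) in uninjured libraries. Cd5l overlapped, with 62.8 to 79.7 (median 74.1) in injured and 43.7 to 83.2 (median 72.8) in uninjured libraries, and Adgre1 likewise, with 5.26 to 8.21 (median 6.93) and 3.82 to 12.1 (median 6.69).

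**Figure D4:**
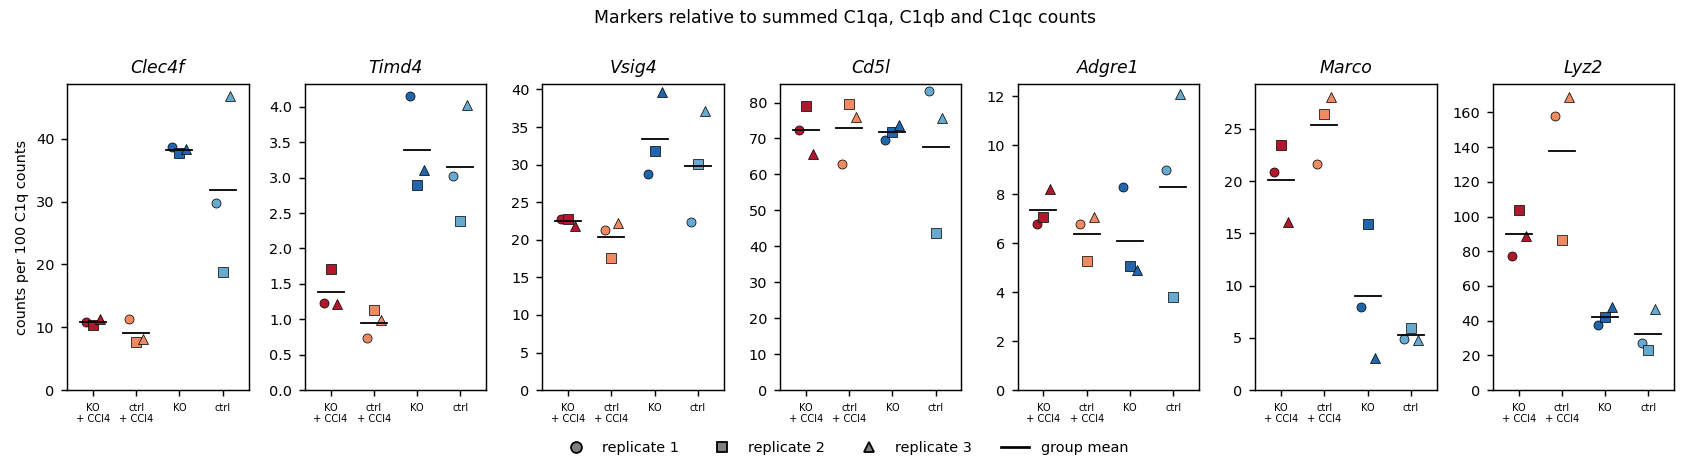
Counts of 7 markers per 100 summed counts of C1qa, C1qb and C1qc in each library, on axes that start at 0, with symbols for replicates and lines for group means. Clec4f and Timd4 are lower, and Marco and Lyz2 higher, in all 6 injured libraries than in all 6 uninjured ones; Cd5l and Adgre1 overlap.

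The choice of denominator mattered. Against the summed counts of 25 other macrophage genes in place of C1q, Clec4f remained lower without overlap (log2 ratio of means -1.12 rather than -1.82). Marco and Lyz2 remained higher without overlap (2.44 rather than 1.68, and 2.31 rather than 1.61). Timd4 then overlapped between injured and uninjured libraries (-0.84 rather than -1.48), and Vsig4 changed sign (0.10 rather than -0.56). Against Cd5l counts, Clec4f, Timd4, Marco and Lyz2 moved by less than the spread between libraries.

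The knockout itself was compared in each injury state. In uninjured livers the log2 fold changes of Yap/Taz KO over ctrl ran from -1.44 (Adgre1, SE 0.71, edgeR adjusted p = 0.545) to -0.59 (Marco, SE 0.58, edgeR adjusted p = 0.785), all 10 negative. None of the 10 passed, and 0% of all tested genes did by edgeR. At an unadjusted p below 0.05 edgeR gave 1020 genes, C1qa among them, and DESeq2 called 43 genes at an adjusted p of 0.05, none of the 10. Without ctrl replicate 1 the fold changes lay between -0.10 and 0.42, so the negative values rest on that library. All 10 overlapped in CPM, where 8.18% of tested genes were lower and 3.27% higher without overlap.
After injury the fold changes of Yap/Taz KO + CCl4 over ctrl + CCl4 ran from -0.97 (Lyz2, SE 0.54, edgeR adjusted p = 0.983) to 0.24 (Timd4, SE 0.64, edgeR adjusted p = 0.992). None of the 10 passed, and 0% of tested genes did by edgeR (613 at an unadjusted p below 0.05, 17 by DESeq2). All 10 overlapped in CPM, where 14.2% of tested genes were lower and 4.12% higher without overlap. Lyz2 averaged 630 ± 83.2 CPM in Yap/Taz KO + CCl4 and 1401 ± 736 CPM in ctrl + CCl4 (SD, n = 3 each), and the libraries overlapped because ctrl + CCl4 replicate 2 had 629 CPM. Per 100 C1q counts, Lyz2 stood at 89.9 ± 13.3 in Yap/Taz KO + CCl4 and at 138 ± 44.9 in ctrl + CCl4, also with overlap. Timd4 stood at 1.39 ± 0.277 in Yap/Taz KO + CCl4 and at 0.953 ± 0.198 in ctrl + CCl4 per 100 C1q counts. That was the only one of the 7 ratios without overlap between these groups, where 10.5% of tested genes were higher and 1.44% lower without overlap, and it rests on 16 to 34 counts per library.
The difference between the injury responses of knockout and ctrl was tested as an interaction. It ran from -0.35 (Lyz2, SE 0.77, edgeR adjusted p = 0.925) to 1.33 (Adgre1, SE 0.95, edgeR adjusted p = 0.725) and called none of the 10, nor any other gene (0%; 874 at an unadjusted p below 0.05, and 12 genes by DESeq2). The markers called in only 1 genotype are thus not shown to differ between genotypes, and without ctrl replicate 1 the interaction of 8 of the 10 changed sign.

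Within groups the 10 markers varied together. Deviations of log2 CPM from the group mean correlated between markers with a median Pearson r of 0.932 over the 45 pairs (lowest 0.62 for Marco and Lyz2, highest 0.981), over 12 libraries that share their groups' means, and with a median of 0.879 without ctrl replicate 1. The points share their library and its depth, and no test is given. The 9 pairs that include Marco had the 9 lowest correlations. All 10 markers lay above their group mean in Yap/Taz KO + CCl4 replicate 1, ctrl + CCl4 replicate 3, Yap/Taz KO replicate 1 and ctrl replicate 1, and all 10 lay below it in 4 of the other 8 libraries.

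**Figure D5:**
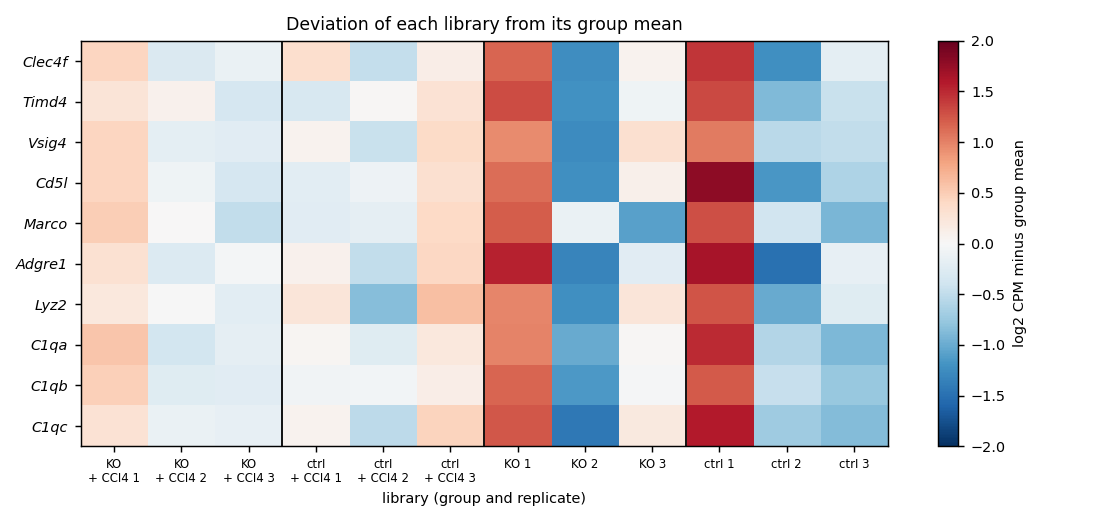
Log2 CPM of each marker minus the mean of its group, for the 12 libraries in 4 groups separated by lines; red is above and blue below the group mean. The columns of Yap/Taz KO replicate 1 and ctrl replicate 1 are red for all 10 markers, and the uninjured groups spread more widely than the injured ones.

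The genes most like the mean level of the 10 markers over the 12 libraries, among 7698 genes with a mean of at least 10 CPM, included Cybb (Pearson r = 0.985), Laptm5, Mpzl1, Cfp, Tmsb4x, Ctss, Rac2, Fyb and Rgs1 (r = 0.973). By deviations within groups they were H2-Ab1 (r = 0.986), H2-DMa, Cfp, Rac2, Cybb, Tmem86a, H2-Eb1, Arhgdib, H2-Aa and Laptm5 (r = 0.970). Cybb, the phagocyte oxidase subunit, Laptm5, Cfp (properdin) and Rac2 stood in both orders, and 4 of the second order encode class II antigen presentation proteins.

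Lists of other genes of the same cells were read in the same fit. Of 24 tested members of a list of other macrophage genes, 15 rose and 0 fell in the knockout response (median log2 fold change 1.81). Of all tested genes, 9.42% rose and 8.35% fell there. In the ctrl response 9 of the list rose and 0 fell (median 1.42), where 10.5% and 12% of tested genes did. The ctrl count of the list was 17 without ctrl replicate 1, where 15.4% of tested genes rose. It was 3 without ctrl replicate 3 or without ctrl + CCl4 replicate 3, and 4 without ctrl replicate 2. The knockout count was 6 without Yap/Taz KO replicate 2, 9 without Yap/Taz KO replicate 3, 8 without Yap/Taz KO + CCl4 replicate 1 and 10 without Yap/Taz KO + CCl4 replicate 2. Cd68, a lysosomal protein of macrophages, had 173, 144 and 148 CPM in Yap/Taz KO + CCl4 libraries, against 14.0, 3.74 and 11.1 CPM in Yap/Taz KO libraries, and rose by 3.66 (log2, SE 0.59, edgeR adjusted p = 0.000618). In ctrl it rose by 2.94 (SE 0.55, edgeR adjusted p = 0.00152). The class II gene H2-Aa did not pass: it had 211, 117 and 90.2 CPM in Yap/Taz KO + CCl4 libraries, 205, 104 and 183 CPM in ctrl + CCl4 libraries, 278, 39.6 and 84.5 CPM in Yap/Taz KO libraries, and 737.5, 90.7 and 122 CPM in ctrl libraries.
Of 18 tested genes of a list of other Kupffer cell genes, 2 rose and 2 fell in the knockout response (median 0.77), and 2 rose and 3 fell in the ctrl response (median -0.04). Over the left-out libraries the count of higher genes ran from 1 to 5 in the knockout response and from 0 to 6 in the ctrl response, with 6 without ctrl replicate 1. These shares are near those of all tested genes given above. Apoc1, which hepatocytes also express, fell by 1.94 in the knockout (SE 0.27, edgeR adjusted p = 0.000211) and had at least 1274 CPM in every library. Hpgd, a prostaglandin-degrading enzyme, fell in both responses, though its ctrl call was lost in most alternatives. Cd163, the haemoglobin scavenger receptor of resident macrophages, fell in ctrl by 1.95 (SE 0.62, edgeR adjusted p = 0.0354), with 10.4, 5.94 and 13.9 CPM in ctrl + CCl4 libraries, against 65.3, 10.4 and 12.98 CPM in ctrl libraries. That call rests on ctrl replicate 1, without which the log2 fold change was -0.63 (edgeR adjusted p = 0.394). Fabp7, a fatty acid binding protein, rose by 3.63 in the knockout (SE 0.79, edgeR adjusted p = 0.00523), with 36.7, 21.6 and 29.2 CPM in Yap/Taz KO + CCl4 libraries, against 3.93, 1.12 and 0.395 CPM in Yap/Taz KO libraries. Slc40a1, the iron exporter ferroportin, did not pass, and had 224, 207 and 184 CPM in Yap/Taz KO + CCl4 libraries and 145, 59.8 and 144 CPM in Yap/Taz KO libraries.

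Of 13 tested genes of a list for lipid-associated or scar-associated macrophages, 10 rose and 0 fell in each response. Of all tested genes, 9.42% rose in the knockout response and 10.5% in the ctrl response. The median log2 fold change of the list was 2.32 in the knockout and 2.82 in ctrl. Gpnmb, a membrane glycoprotein of lysosome-rich macrophages, had 146, 187 and 127 CPM in Yap/Taz KO + CCl4 libraries, against 3.50, 1.12 and 1.98 CPM in Yap/Taz KO libraries. It had 238, 293.5 and 664.5 CPM in ctrl + CCl4 libraries, against 1.56, 2.83 and 2.47 CPM in ctrl libraries. It rose by 5.76 in the knockout (SE 0.45, edgeR adjusted p = 1.67e-06) and by 7.04 in ctrl (SE 0.47, edgeR adjusted p = 5.17e-07). Its ctrl values rest on 4, 6 and 4 counts, too few to rank the ctrl libraries by this gene. Mmp12, the macrophage elastase, rose by 5.67 (SE 0.44, edgeR adjusted p = 1.67e-06) and 6.89 (SE 0.46, edgeR adjusted p = 5.17e-07) in the same comparisons. Lgals3, which encodes galectin-3, rose by 5.22 (SE 0.49, edgeR adjusted p = 8.75e-06) in the knockout and by 4.69 (SE 0.47, edgeR adjusted p = 1.15e-05) in ctrl. Several of these genes can be expressed by other cells, and the cells of origin were not tested.
Of 14 tested monocyte and neutrophil genes, 13 rose in the knockout response (median 3.84), where 9.42% of tested genes did. In the ctrl response 9 rose (median 2.87), where 10.5% did, and 0 fell in either response. The knockout count of these genes was 8 without Yap/Taz KO replicate 2. Their summed level was 332 to 495 CPM in Yap/Taz KO + CCl4 libraries, against 10.5 to 51.1 CPM in Yap/Taz KO libraries, and 461 to 855 CPM in ctrl + CCl4 libraries, against 47.7 to 186 CPM in ctrl libraries. Ccr2, the receptor by which monocytes follow CCL2, had 46.4, 35.9 and 38.9 CPM in Yap/Taz KO + CCl4 libraries, against 3.50, 1.12 and 0.790 CPM in Yap/Taz KO libraries, and rose by 4.11 (SE 0.55, edgeR adjusted p = 0.000148). In ctrl it rose by 3.10 (SE 0.49, edgeR adjusted p = 0.000431). Of the neutrophil genes on the list, Ly6g was at 0 in all 12 libraries, but S100a8 had 28.9, 16.8 and 21.7 CPM in Yap/Taz KO + CCl4 libraries and 62.1, 24.1 and 45.4 CPM in ctrl + CCl4 libraries. It had 0, 0.747 and 3.56 CPM in Yap/Taz KO libraries and 25.01, 1.42 and 1.85 CPM in ctrl libraries, and rose in the knockout by 3.57 (SE 0.94, edgeR adjusted p = 0.0168). S100a9 rose in the knockout too (2.44, SE 0.74, edgeR adjusted p = 0.0347). In ctrl neither S100a8 nor S100a9 passed with 12 libraries. Without ctrl replicate 1 they rose there by 4.32 (edgeR adjusted p = 0.000497) and 2.51 (edgeR adjusted p = 0.0031). Csf3r and Cxcr2, also on the list, had at most 7 and 10 counts in a library and were not tested. Retnlg, at 5.82 to 14.8 CPM in the injured libraries and 0 to 3.52 CPM in the uninjured ones, passed as higher in both responses. The part of these cells in the Lyz2 result was not tested.
Among 16 genes of signals that draw or hold macrophages in the liver, 12 were tested, and 2 rose and 0 fell in the knockout response, and 4 rose and 2 fell in the ctrl response. With so few genes, 2 of 12 is near the shares of all tested genes given above. The 4 of 12 that rose in ctrl stand beside 10.5% of tested genes. The knockout count of higher genes was 4 without ctrl replicate 3, and the ctrl count was 2 without any 1 of the 3 ctrl + CCl4 libraries. Ccl2, the monocyte chemoattractant, had 35.7, 39.0 and 33.4 CPM in Yap/Taz KO + CCl4 libraries, against 2.18, 0.373 and 0.395 CPM in Yap/Taz KO libraries. It had 101, 68.3 and 105 CPM in ctrl + CCl4 libraries, against 5.08, 6.14 and 0 CPM in ctrl libraries. It rose by 4.82 (SE 0.63, edgeR adjusted p = 0.000136) in the knockout and by 4.14 (SE 0.52, edgeR adjusted p = 6.64e-05) in ctrl. Cxcl12, a chemokine, fell in ctrl by 1.20 (SE 0.21, edgeR adjusted p = 0.000837).

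Of 15 tested genes of a phagocytosis list, 4 rose and 0 fell in the knockout response, where 9.42% and 8.35% of tested genes did. In the ctrl response 4 rose and 1 fell, where 10.5% and 12% of tested genes did. Without ctrl replicate 1, 7 rose, where 15.4% of tested genes did. Msr1, a scavenger receptor of macrophages, had 241, 184 and 208 CPM in Yap/Taz KO + CCl4 libraries, against 46.3, 10.5 and 31.6 CPM in Yap/Taz KO libraries, and rose by 2.48 (SE 0.53, edgeR adjusted p = 0.00477). In ctrl it rose by 2.22 (SE 0.52, edgeR adjusted p = 0.00671). Scarb1, the lipoprotein receptor, which hepatocytes also express, fell in ctrl by 0.87 (SE 0.25, edgeR adjusted p = 0.0229), a call lost without ctrl + CCl4 replicate 1, ctrl + CCl4 replicate 3 or ctrl replicate 3.
Of 17 complement genes, 6 rose and 3 fell in the knockout response, and 6 rose and 6 fell in the ctrl response. Itgam, a subunit of complement receptor CR3, rose by 2.79 (SE 0.63, edgeR adjusted p = 0.00676) in the knockout and by 3.35 (SE 0.59, edgeR adjusted p = 0.000921) in ctrl, and C3ar1, the receptor of the C3a fragment, by 3.33 (SE 0.61, edgeR adjusted p = 0.00164) and 3.21 (SE 0.59, edgeR adjusted p = 0.00125). C3 itself, which hepatocytes secrete, did not pass, with 3909 to 5023 CPM in Yap/Taz KO + CCl4 libraries, 4097 to 5836 CPM in ctrl + CCl4 libraries, 4493 to 6072 CPM in Yap/Taz KO libraries and 3598 to 6149 CPM in ctrl libraries.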

How the data were processed

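Livers were perfused and their hepatocytes sorted; the RNA was read with QuantSeq 3' FWD chemistry, per the labels' protocols. A transcript therefore gives a tag near its 3' end, and CPM is not divided by length. The deposited table holds raw counts by gene symbol: its values are whole numbers with a different total in each library. STAR 2.6.1d, with cutadapt and FastQC, is listed in the submitters' processing notes, as is the mouse build (mm10, also called GRCm38). The counter, annotation, strand setting, treatment of molecular identifiers and sort gate were not given in the sources used here. Of the 37141 rows, 17882 held no counts.

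CPM is the count scaled to a common library total, by the raw total and not the TMM one. Counts were tested with edgeR 4.0.16 (R 4.3.3): filterByExpr left 10780 genes, all 10 markers among them, TMM factors ran from 0.776 to 1.312, 1 coefficient was fitted per group over 12 samples, and quasi-likelihood F tests of 5 contrasts were adjusted over all tested genes (Benjamini-Hochberg, 0.05). DESeq2 1.42.0, limma-voom (limma 3.58.1), RLE factors, library totals, no filter, a replicate block, 6-sample fits and leaving out each sample were alternatives. The ratios to C1q counts were chosen after the data had been seen. The fit was tested on simulated data. Libraries of a group differed by more than sampling noise in every pair (lowest chi-square over its degrees of freedom 8.56).

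The 10 markers and all gene lists were chosen with earlier results of these data known. The rule for naming genes took all 10 markers, and in each other list the 3 most abundant tested genes and the 3 with the smallest adjusted p past the threshold in each injury response, of which a selection is described. The restriction of list genes' fold changes to those that passed the test was made after the data had been seen. Lyz1, Ly6g, S100a8, S100a9, Retnlg, Csf3r, Cxcr2, Cd163, C1ra, C1s1, C1rl, C2 and C4b were named outside the rule, after their values were seen.
Positions come from GENCODE M21 (GRCm38), promoters from RefSeq (GRCm38.p6). Of the 10 genes most like the markers in level, 1 is not reported here.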

Additional observations from a re-analysis of the deposited data

How the results depend on the processing

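Of the 10 markers, the count called in either direction in the ctrl injury response was 2 with 12 libraries. It was 6 with no low-count filter, 4 with a replicate block, and 2 to 8 when single libraries were left out (8 without ctrl replicate 1). The 6 with no low-count filter included Clec4f, called as lower after injury. In the knockout injury response the count was 3 with 12 libraries, and 8 with library totals, with no low-count filter, with a replicate block and with limma-voom. It was 7 with only the 6 libraries compared, 4 with DESeq2, and 2 to 8 when single libraries were left out. With library totals, 1814 of all tested genes were called higher in that response and 406 lower, against 1016 and 900 with TMM. The marker counts are not set beside the calls of all tested genes in every setting, so they are read as a description. Over all settings, genes called in either direction among all tested genes ran from 1666 to 3173 in the ctrl response and 1176 to 2331 in the knockout response. With no low-count filter, 5 markers were called as lower in Yap/Taz KO than in ctrl and 1, Lyz2, as lower in Yap/Taz KO + CCl4 than in ctrl + CCl4. Over all settings, 0 to 210 and 0 to 109 of all tested genes were called in these comparisons. With the filter and without ctrl replicate 1, the uninjured marker fold changes lay between -0.10 and 0.42. Same-numbered replicates correlated between -0.152 and 0.323 in their deviations. Differently numbered replicates were not compared, so whether the numbers pair the samples was not tested.

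Some fold changes changed sign. Clec4f in the knockout response was 0.32 with library totals, 0.22 with the replicate block and 0.25 with limma-voom, and Marco's interaction was 0.0043 with library totals and 0.14 with limma-voom. Over left-out libraries, the ctrl response of Clec4f ran from -1.22 to 0.26, that of Timd4 from -1.15 to 0.35 and that of Hbb-bs from -3.49 to 0.035. The knockout response of Clec4f ran from -0.46 to 0.70 and that of Timd4 from -0.10 to 1.33. The difference of Yap/Taz KO from ctrl ran from -1.50 to 0.30 for Clec4f, -1.84 to 0.25 for Timd4, -1.88 to 0.30 for Cd5l, -1.47 to 0.42 for Marco, -1.18 to 0.29 for Lyz2 and -1.90 to 0.14 for C1qc. That of Yap/Taz KO + CCl4 from ctrl + CCl4 ran from -0.27 to 0.17 for Clec4f, -0.42 to 0.067 for Vsig4, -0.34 to 0.13 for Adgre1 and -0.45 to 0.039 for C1qc. The interaction ran from -0.31 to 1.49 for Clec4f, -0.0003 to 2.09 for Timd4, -0.11 to 1.15 for Vsig4, -0.58 to 1.60 for Cd5l, -1.03 to 0.86 for Marco, -0.010 to 2.51 for Adgre1, -1.26 to 0.21 for Lyz2, -0.31 to 1.49 for C1qa, -0.20 to 1.47 for C1qb and -0.35 to 1.69 for C1qc. The cause of these changes was not tested.

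Without Lyz2 the summed markers averaged 1678 CPM in Yap/Taz KO + CCl4 and 2278 CPM in ctrl + CCl4. Relative to other macrophage genes in place of C1q, an added denominator, the log2 ratio of injured to uninjured libraries was -1.12 for Clec4f, -0.84 for Timd4, 0.10 for Vsig4, 0.71 for Cd5l, 2.44 for Marco, 0.56 for Adgre1 and 2.31 for Lyz2. Low counts limit Timd4 most among the 10 markers.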
